A study of Mus musculus with 30 samples.

Results

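Ppp2r1b encodes a scaffold subunit of protein phosphatase 2A (PP2A), and its rescue clone Ppp2r1b_R was compared with the control clone Ctrl_R after Dox had been withdrawn from both. All arrays of these 2 conditions were taken, which made 6 of the 30 arrays of the series. Both clones derive from Ainv15, a mouse embryonic stem cell (ESC) line that carries the Dox-controlled activator. In Ppp2r1b_R an shRNA is directed against the endogenous mRNA. Doxycycline (Dox, 1 μg/ml) induces a copy of the coding sequence whose silent changes hide it from the shRNA. Ctrl_R is the rescue clone labelled as control, it was cultured with and without Dox as well, and no depleted gene is given for it in the labels. Cells without Dox (−Dox) had been kept 5 days in its absence, off the feeder layer. The other conditions used here were the same clones with Dox (+Dox) and the −Dox samples of the Chek1_R, Ppm1g_R and Bub1b_R clones. Every condition had 3 arrays. Which of the independent rescue clones made for a gene the arrays come from is not given in the sources used here, and a difference between Ppp2r1b_R and Ctrl_R holds whatever the clones differed in beside the shRNA, and nothing in the labels says that the 3 arrays of a condition came from separate cultures. P-values measure the spread between those arrays.

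PP2A removes phosphate from serine and threonine residues of a wide range of proteins. Its core joins a scaffold subunit (Ppp2r1a or Ppp2r1b) to a catalytic subunit (Ppp2ca or Ppp2cb), and one of many regulatory B subunits selects the substrate. ESCs are held undifferentiated by a transcription factor network around Pou5f1, Sox2 and Nanog, and FGF and Wnt signals direct their exit towards epiblast and germ layer fates.

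The shRNA of Ppp2r1b_R was built against this 21-base stretch of Ppp2r1b, as the vector list of the study gives it. The stretch is printed 5′ to 3′ with the whole target in capitals.
Ppp2r1b shRNA target: GCTCCGTCTCAACAGTATTAA

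The 2 clones lay in different array sets by signal level. The lowest signal with a detection p under 0.05 was 27.8, 29.3 and 35.5 on the Ppp2r1b_R −Dox arrays and 17.5, 12.9 and 15.1 on the Ctrl_R −Dox arrays, so a dim transcript was called detected more readily in the control. Detected probes numbered 12578, 12581 and 12728 in Ppp2r1b_R and 13506, 13685 and 13325 in Ctrl_R. The brightest signals went the other way, at 29539 to 31424 in Ppp2r1b_R and 41584 to 46870 in Ctrl_R. Array set and clone cannot be told apart in the main comparison. For that reason 3 further readings stand beside it. The first is the same clone difference with Dox, which shares no array with the main comparison but crosses the same sets. The second is the difference between the 2 clone differences, in which each Dox change stays within a set. The third is Ppp2r1b_R −Dox against the mean of Chek1_R and Ppm1g_R −Dox, within the higher-signal set. Bub1b_R lies in the lower-signal set with Ctrl_R, and its levels are given where they help. In all of these, levels are normalized log2 signals of a gene's brightest probe, differences are on the log2 scale with an offset of 16 in the signal, and they understate the change of dim genes. Fewer cells that express a gene and less of its RNA per cell cannot be told apart in such bulk samples.

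Of 11177 tested genes, 1914 were higher in Ppp2r1b_R −Dox than in Ctrl_R −Dox and 1788 were lower (adjusted p under 0.05 with a change of 1.5-fold or more). These are 17.1% and 16% of the tested genes, the background against which each gene group below is read. Scaling the arrays to their medians in place of quantiles turned the near even split of probes, 2520 higher and 2586 lower, into 1913 higher and 3715 lower, and moved the median of all probes from −0.04 to −0.18. With Dox, 1618 genes (14.5%) were higher and 1457 (13%) lower in Ppp2r1b_R. Of the 1914 genes higher without Dox, 1317 were also higher with Dox, which makes 68.8% of the first list and 81.4% of the second. Of the 1788 lower genes, 1164 were also lower with Dox (65.1% and 79.9%). A single gene was called in opposite directions. Across the 11177 genes the 2 clone differences had a Pearson r of 0.906, over points that share clones and array sets. The difference between the clone differences passed the test for 199 genes in the positive direction (1.78%) and 183 in the negative (1.64%). In probes this comparison had 497 calls, which fell to 288 under median scaling and to 237 when only the arrays compared were fitted. Within the higher-signal set, against Chek1_R and Ppm1g_R, 944 genes (8.45%) were higher and 756 (6.76%) lower.

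**Figure D1:**
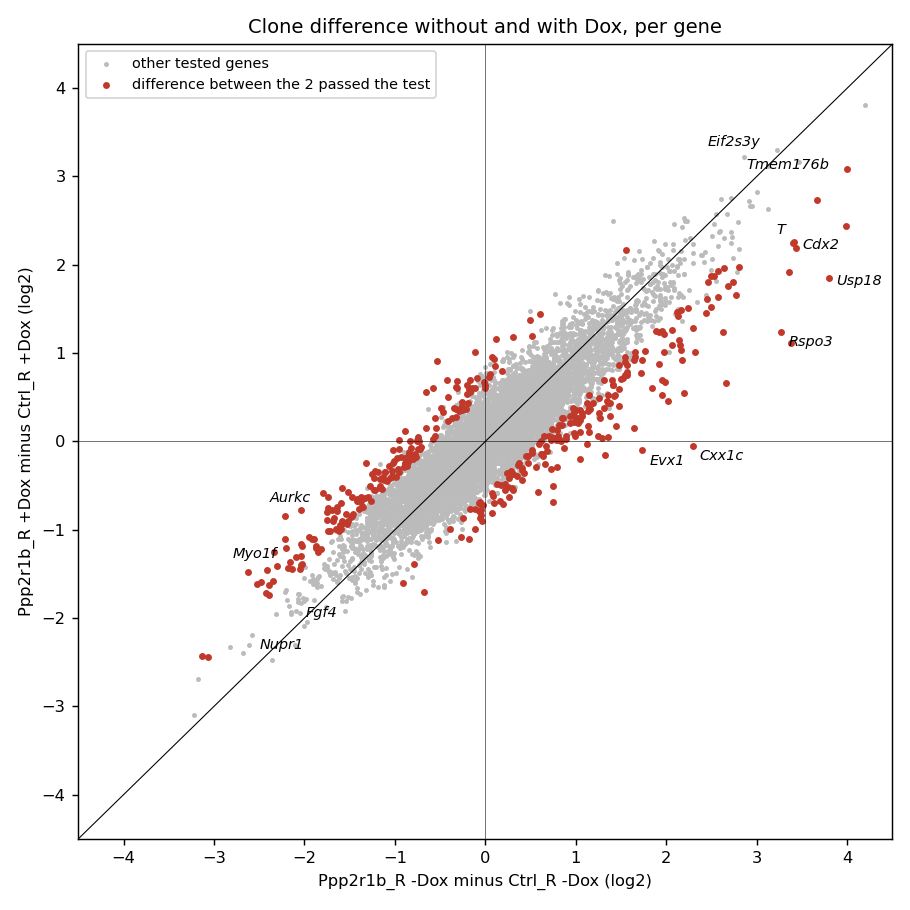
Each point is 1 of 11177 tested genes, with the log2 difference between Ppp2r1b_R and Ctrl_R without Dox on the horizontal axis and with Dox on the vertical axis, and the diagonal marks equal differences. Most genes lie near the diagonal (r = 0.906), and the genes in red, 199 and 183, are those whose 2 differences differed by the test; Usp18, Rspo3, Evx1 and Cxx1c lie far below the line.

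Ppp2r1b itself was read by a single probe. Its levels were 6.16, 6.49 and 6.21 in Ppp2r1b_R −Dox and 6.28, 6.92 and 6.40 in Ctrl_R −Dox. The groups overlapped, and the difference of −0.25 ± 0.15 (SE, n = 3 and 3) did not pass the test (adjusted p = 0.158). With Dox the levels were 6.23, 6.20 and 5.84 against 6.74, 6.52 and 6.84, a difference of −0.61 (adjusted p = 0.00124). Ctrl_R was itself low in this gene, since the −Dox means were 7.25 in Chek1_R, 7.33 in Ppm1g_R and 7.57 in Bub1b_R. Against Chek1_R and Ppm1g_R, within 1 array set, Ppp2r1b was lower (−1.0, adjusted p = 6.74e-07). Where this probe lies relative to the induced coding sequence is not given in the sources used here. The probe therefore does not check the rescue. Without Dox, when the copy is not induced, it showed no called depletion against Ctrl_R.

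Most other PP2A genes were not called. Ppp2r1a, the alternative scaffold, was at 10.56, 10.77 and 10.64 in Ppp2r1b_R −Dox and 10.92, 11.05 and 10.88 in Ctrl_R −Dox. The groups did not overlap, but the difference of −0.29 ± 0.11 was under 1.5-fold (adjusted p = 0.0212). The catalytic subunits Ppp2ca and Ppp2cb differed by 0.20 and 0.46 and were not called, and the first turned to −0.29 under median scaling. Of 10 tested catalytic and regulatory subunits none was called higher and 2 were called lower, with a median difference of −0.28 beside −0.03 over all genes. Ppp2r3c, a regulatory subunit of the B″ family, was lower (−0.73 ± 0.06), at 8.11, 7.97 and 8.09 against 8.81, 8.79 and 8.76. Ppp2r5b, of the B56 family, was detected on no Ppp2r1b_R −Dox array and on all 3 Ctrl_R −Dox arrays, which bounds it at no less than 1.19-fold lower. The regulatory subunits Ppp2r2c, Ppp2r2d, Ppp2r5c, Ppp2r5d, Ppp2r5e and Strn4 differed by between −0.41 and 0.46 and were not called by their brightest probes. A pair of further probes of Ppp2r5c gave −0.58 and −0.91, and the last passed both limits of a call (adjusted p = 1.83e-11). Among 9 tested modulators of PP2A only the gene listed as C330027C09Rik was called. RefSeq names it Cip2a, an inhibitor of PP2A, and it was higher by 0.90 and detected on all Ppp2r1b_R and 1 of 3 Ctrl_R arrays without Dox. The call was lost at an offset of 50 (0.57) and of 200 (0.22). Its −Dox means followed the array sets, at 6.36 in Ppp2r1b_R, 6.25 in Chek1_R, 6.03 in Ppm1g_R, 5.32 in Bub1b_R and 5.46 in Ctrl_R. Within the higher-signal set it differed by 0.22 and was not called (adjusted p = 0.205).

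The largest differences among genes detected on all 6 arrays stood far outside the spread between arrays. Oasl2, a gene of the oligoadenylate synthetase family, was at 10.24, 10.11 and 10.29 in Ppp2r1b_R −Dox and 6.10, 5.57 and 6.37 in Ctrl_R −Dox. That is 18.4-fold (4.20 ± 0.15), while a second, dimmer probe gave 0.92. Tmem176b, which encodes a membrane protein, was at 10.54, 10.49 and 10.49 against 6.71, 6.42 and 6.40, or 15.9-fold. Both genes kept the groups apart by more than 3 log2 units. Without Dox Oasl2 averaged 10.84 in Chek1_R, 9.69 in Ppm1g_R and 9.05 in Bub1b_R. Gbp3, a guanylate-binding GTPase, was higher by 3.12 and the gene listed as D12Ertd647e, which RefSeq names Ifi27, by 3.36. Flt1, a receptor for vascular endothelial growth factor, was higher by 3.0 ± 0.07. Sp5, Fgf8, Cdx2, T and Eif2s3y made up the rest of the leading 10 and are described with their groups.

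At the other end Nupr1, a small nuclear protein induced by stress, was at 8.67, 8.78 and 8.61 in Ppp2r1b_R −Dox and 11.27, 11.31 and 11.23 in Ctrl_R −Dox, lower (−2.58 ± 0.09). The gene listed as Gm397, which RefSeq names Zscan4c and which marks a transient state of ESCs, was lower (−2.48); it belongs to a cluster of near-identical copies that 1 probe may not separate. Ela2a, a pancreatic elastase, was lower (−2.43) and so was Tuba3a, an alpha-tubulin with close paralogs (−2.39, with further probes at −1.14, −3.30 and −3.76). Igsf21 was lower (−2.39), as were Ddit3 (−2.36), Inpp5d, a phosphatidylinositol phosphatase of blood cells (−2.35), and Gstp2, a glutathione transferase (−2.34). Aard was lower (−2.30) and so was Soat2, which esterifies cholesterol (−2.21), although a second, dimmer probe of Soat2 gave 0.04. In all 20 genes the 3 arrays of one clone lay above the 3 of the other, which the rule required of them.

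**Figure D2:**
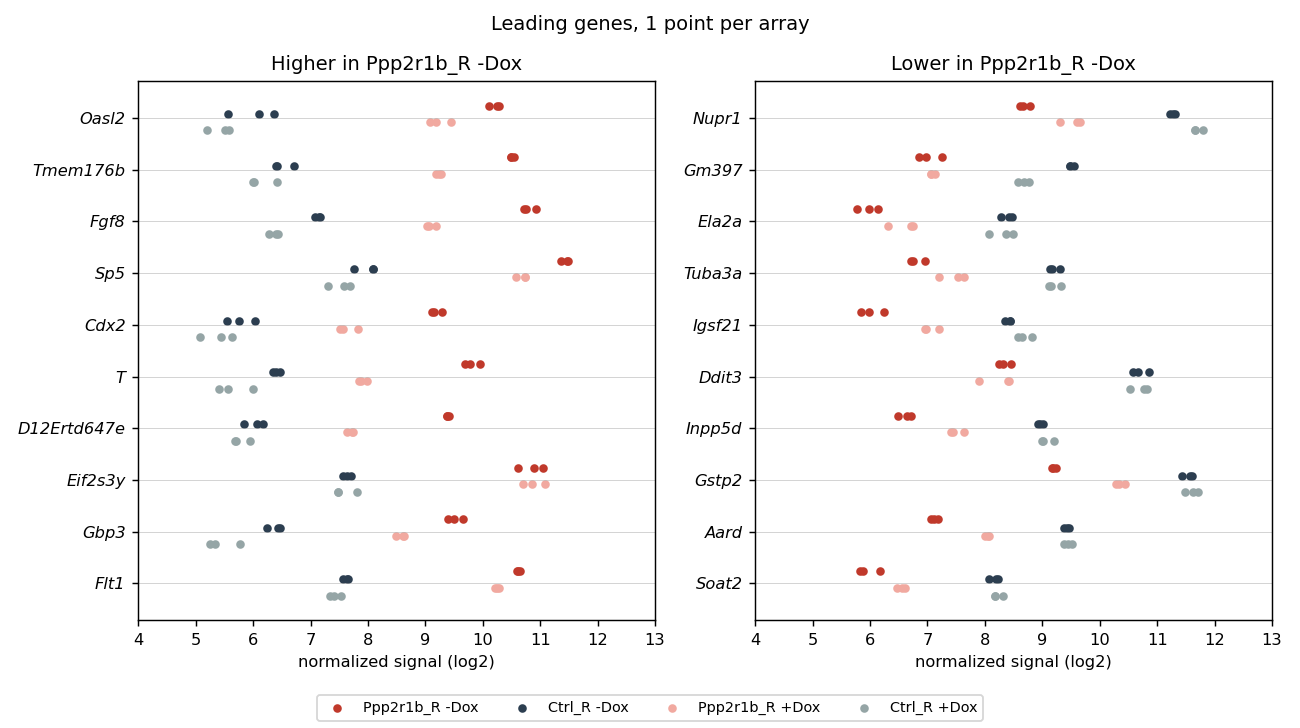
Normalized log2 signal (horizontal axis) of the 10 genes with the largest difference in each direction among those detected on all 6 −Dox arrays, with 1 point per array and colours for the 4 conditions. Without Dox the Ppp2r1b_R and Ctrl_R points do not overlap in either panel, as the rule required. Oasl2 and Tmem176b have the largest differences of means, 4.20 and 4.0.

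Detection differed between the clones in the direction of their lowest detected signals. Among genes detected on all 3 arrays of one clone and none of the other, 109 were called higher in Ppp2r1b_R and 273 lower. For these only a bound can be given, the mean of the detected clone over the higher of the lowest detected signal and the gene's own value on each array of the other. Usp18, a protease that removes ISG15 from proteins, was at 8.88, 8.88 and 8.84 in Ppp2r1b_R −Dox and detected on no Ctrl_R −Dox array, at least 11.0-fold higher. Ccdc80, a secreted matrix protein, was at least 5.35-fold higher, and Gm784, which RefSeq names Fndc3c1, at least 5.04-fold. Gbp6, a guanylate-binding GTPase, and Samd9l were at least 4.77-fold and 4.02-fold higher. Cplx1, a complexin of synaptic vesicle release, was detected without Dox on the Ctrl_R arrays and on none of Ppp2r1b_R, at least 7.37-fold lower. Rpl3l, the muscle paralog of a ribosomal protein, was at least 6.97-fold lower and Rab3il1, an exchange factor for Rab GTPases, at least 5.31-fold. Tmem92 was at least 4.32-fold lower and As3mt, an arsenic methyltransferase, at least 4.22-fold. Second, dimmer probes of several of these genes gave smaller differences on the log2 scale, 1.43 for Usp18, 0.78 for Gm784, 1.58 for Gbp6, −1.66 for Rab3il1 and −1.22 for As3mt.

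The calls of dimmer genes depended on the offset. Among the genes named here, those of Agtrl1, C330027C09Rik, Cox6a2, Cox8c, Dazl, Dcn, Evx1, Ezh1, Fancc, Fkbp6, Hspa5, Lypd2, Msx1, Nnat, Pdgfrb, Pmaip1, Ppp1r12c, Ppp2r3c, Ppp2r5b, Rnf2, Rps6kl1, Sesn2, Taf7l and Uty were lost at an offset of 200, and those of C330027C09Rik, Ppp1r12c and Ppp2r5b already at 50. The call of Tdgf1 was lost under median scaling, and those of Msx1 and Ppp1r12c under the methods' t-test. Some genes below were detected without Dox on part of the arrays of 1 clone, and their differences are taken partly against values not above background. Aurkc, Ezh1 and Ppp1r12c were detected on 2 of 3 Ppp2r1b_R arrays, Evx1, Fst, Hoxd8 and Msx1 on 2 of 3 Ctrl_R arrays, and Gata3 and Rspo3 on 1 of 3.

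Pluripotency genes were lower as a group, and all 27 tested members were detected on every array of the 2 conditions. Of these 27, 14 (51.9%) were lower in Ppp2r1b_R −Dox and 2 were higher, with a median difference of −0.84. Fgf4, a growth factor that ESCs secrete, was at 7.43, 7.06 and 7.11 against 9.25, 9.27 and 9.28, 4.19-fold lower (SE 0.09, adjusted p = 4.76e-15). Dnmt3l, a cofactor of de novo DNA methylation, was lower (−1.73 ± 0.07). Pou5f1 was at 11.15, 11.45 and 11.16 against 12.62, 12.55 and 12.51, lower (−1.30 ± 0.09). The following genes were singled out after their values had been seen. Esrrb was lower (−1.20) and so was Sox2 (−1.1), whereas a second, dimmer probe of Sox2 gave 0.85. Nanog was at 12.65, 12.32 and 12.54 against 12.53, 12.45 and 12.55 and its groups overlapped (−0.01 ± 0.10, adjusted p = 0.952). Klf4 differed by −0.35 and was not called by its brightest probe, while 2 further probes gave −1.23 and −1.32. The 2 higher members were Lin28 (1.28), an RNA-binding protein, with a second probe at −0.25, and Tdgf1 (0.74), the Nodal co-receptor Cripto. Both followed the array sets, whose part was not tested. Lin28 averaged 9.92 in Ppp2r1b_R, 9.96 in Chek1_R, 9.90 in Ppm1g_R, 8.65 in Bub1b_R and 8.64 in Ctrl_R without Dox. Tdgf1 averaged 10.90, 10.59, 11.01, 9.31 and 10.16 in the same order. Within the higher-signal set they differed by −0.01 and 0.10.

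The lower level of pluripotency genes was present with Dox as well, with 11 of 27 lower, 5 higher and a median of −0.40. The clone difference was more negative without Dox for 4 members by the test of the difference, and more positive for none (median −0.40, beside 0.00 over all genes). Nanog, whose clone difference with Dox was 0.57, had a difference of −0.57 ± 0.14 between the clone differences (adjusted p = 0.014), just under the 1.5-fold limit. Against Chek1_R and Ppm1g_R, 12 of 27 were lower and none was higher. Members differed in this respect. Fgf4 stood at 7.20 in Ppp2r1b_R, 7.02 in Chek1_R, 7.49 in Ppm1g_R and 7.06 in Bub1b_R, and was high only in Ctrl_R (9.27). Dnmt3l stood at 10.93 in Ppp2r1b_R and between 11.71 and 12.67 in the other 4 clones, and differed from Chek1_R and Ppm1g_R by −1.26 (adjusted p = 6.87e-14).

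Genes of the primitive streak and mesoderm showed the opposite direction. Of 19 tested members, 11 (57.9%) were higher in Ppp2r1b_R −Dox and 1 was lower, with a median of 0.99, or 1.33 when Eomes, Lhx1 and Mixl1, detected on no −Dox array of either clone, are left out and the genes detected in 1 clone only are placed at their bound. Fgf8, the growth factor of the streak, was at 10.75, 10.93 and 10.71 against 7.15, 7.16 and 7.07, 12.8-fold higher (SE 0.07). T, which encodes brachyury, was at 9.78, 9.95 and 9.69 against 6.46, 6.40 and 6.35, 10.6-fold higher (SE 0.11). Cdx2, a homeobox factor of posterior mesoderm and of trophoblast, was at 9.15, 9.29 and 9.12 against 5.76, 6.03 and 5.54, also 10.6-fold (SE 0.15). None of these 3 genes overlapped between the clones, which the rule for the leading 10 required of them. Cxcl12, a chemokine, was higher by 2.20, and its 2 further probes gave 1.00 and 0.49. With Dox, 7 of 19 were higher and the median was 0.13. The clone difference was larger without Dox for 6 of 19 members by the test of the difference. Among them were T (1.15 ± 0.15, adjusted p = 3.51e-05), Cdx2 (1.15 ± 0.21) and Fgf8 (0.94 ± 0.10). Evx1, a homeobox factor of the posterior streak, was at 7.28, 7.29 and 7.22 in Ppp2r1b_R −Dox, 5.53, 6.00 and 5.63 with Dox, and between 5.32 and 6.23 on the 6 Ctrl_R arrays. It was thus higher on the 3 Ppp2r1b_R −Dox arrays than on any other array of the 2 clones, and the clone difference changed by 1.83 ± 0.20 with Dox withdrawal (adjusted p = 2.56e-06).

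Within the higher-signal set the direction was reversed, as 11 of these 19 genes were lower in Ppp2r1b_R −Dox than in the mean of Chek1_R and Ppm1g_R and 1 was higher, with a median of −0.82. T averaged 9.81 in Ppp2r1b_R, 10.85 in Chek1_R, 10.41 in Ppm1g_R and 11.72 in Bub1b_R, and 6.40 in Ctrl_R. Evx1 averaged 7.26 in Ppp2r1b_R, 9.49 in Chek1_R, 9.09 in Ppm1g_R and 10.01 in Bub1b_R, and 5.54 in Ctrl_R. Bub1b_R lies in the same array set as Ctrl_R.

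**Figure D3:**
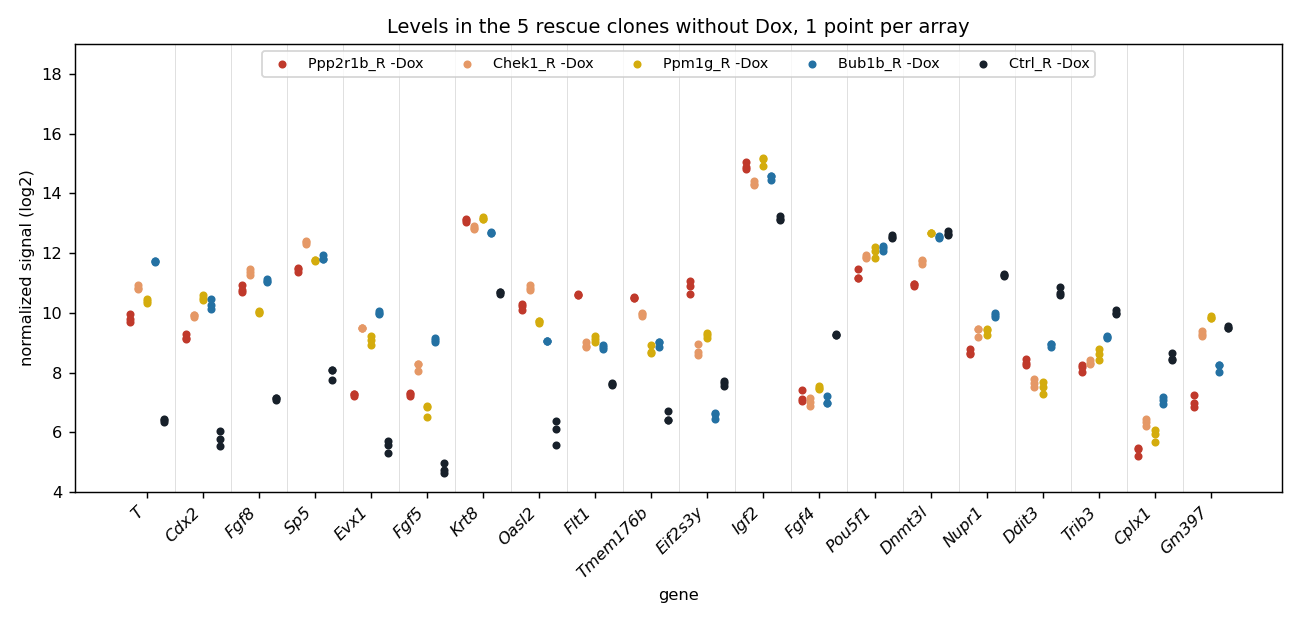
Normalized log2 signal (vertical axis) of 20 genes named in the text in the 5 rescue clones without Dox, 1 point per array. For T, Cdx2, Fgf8, Sp5, Krt8 and Oasl2 the Ctrl_R points lie under those of all the other 4 clones; for Eif2s3y Ppp2r1b_R is the highest at 10.85, and for Pou5f1 and Dnmt3l it is the lowest at 11.26 and 10.93.

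Wnt target genes, of which Cdx1, Fgf8 and T also belong to the previous list, were higher in 9 of 14 tested members (64.3%) and lower in none, with a median of 0.94. Sp5, a transcription factor that Wnt signals induce directly, was at 11.47, 11.36 and 11.49 against 8.09, 7.75 and 8.08, 11.1-fold higher (SE 0.10). Tnfrsf19, a receptor of the tumour necrosis factor family, was higher by 1.95. With Dox 7 of 14 were higher with a median of 0.61, and the clone difference was larger without Dox for 5. Sp5 was not among these 5 (0.31 ± 0.13, adjusted p = 0.158). Rspo3, a secreted protein that amplifies Wnt signals and was not on the list, was at 8.34, 8.34 and 8.51 against 5.00, 5.51 and 4.87, and its clone difference was larger by 2.03 ± 0.28 without Dox, although only 1 of 3 Ctrl_R arrays detected it in either medium. Against Chek1_R and Ppm1g_R 5 of the 14 were lower and none was higher.

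The promoters of these genes were searched for CTTTGAT, the core of a TCF/LEF element, on both strands. RefSeq windows of GRCm38.p6 that span 250 bases before to 50 after a gene's start were at hand for 9 of the 14 genes, and 2 held it, beside 4.29% of 27025 genes. Both were among the genes higher in Ppp2r1b_R, as were 4 of the 7 genes whose window held no match. The 2 windows are printed along the gene's strand with the match in capitals, Sp5 from chr2:70474804-70474840 (plus strand) and Tnfrsf19 from chr14:61038168-61038204 (minus strand).
Sp5: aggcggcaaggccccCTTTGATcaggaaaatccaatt
Tnfrsf19: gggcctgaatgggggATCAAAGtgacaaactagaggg

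Other lineage genes were mixed. Of 17 tested genes of the formative and primed epiblast, 7 (41.2%) were higher and 1 lower (median 0.51). Fgf5, the classical epiblast marker, was at 7.29, 7.32 and 7.22 in Ppp2r1b_R −Dox and was detected on no Ctrl_R −Dox array, at least 3.66-fold higher. Fst, an activin antagonist, was higher by 1.95 with a larger clone difference without Dox (1.42 ± 0.17), and Sall2 was higher by 1.58. Etv4, an ETS factor induced by FGF signals, was lower (−2.19). Against Chek1_R and Ppm1g_R, 1 of the 17 was higher and 4 were lower. Of 15 trophoblast genes 7 were higher and 4 lower. Krt8 and Krt18, the keratin pair of simple epithelia, were higher by 2.43 ± 0.05 and 2.20, and Gata3 by 2.18. The 4 lower members, singled out after their values had been seen, were Rhox9 (−1.54), Rhox6 (−1.25), Ascl2 (−0.99) and Gata2 (−0.64). Against Chek1_R and Ppm1g_R 3 of the 15 were higher and 5 lower. Krt8 averaged 13.10 in Ppp2r1b_R, between 12.69 and 13.16 in Chek1_R, Ppm1g_R and Bub1b_R, and 10.67 in Ctrl_R. Of 19 endoderm genes 7 were higher and 3 lower (median 0.28). Lamb1-1, a laminin chain of basement membranes, was higher by 1.99, Dab2, an endocytic adaptor, by 1.69, and Amn, a protein of absorptive endoderm, was lower (−1.29). Within the higher-signal set 7 of the 19 endoderm genes were higher and none lower. Of these 19, Col4a1, Col4a2, Lama1, Lamb1-1, Lamc1 and Sparc also belong to the matrix and adhesion list. Of 9 neurectoderm genes 2 were higher and 2 lower, with Crabp1, a retinoic acid-binding protein, lower (−1.09) and Msx1, a homeobox factor, higher by 1.05. Of 20 tested Hox genes 7 (35.0%) were higher and none lower, among them Hoxd8 (1.95), whereas 9 of the 20 were lower and 1 higher against Chek1_R and Ppm1g_R.

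Among 16 genes of FGF and ERK feedback 6 were higher and 2 lower. Dusp4, a phosphatase that inactivates ERK, was higher by 2.24 and its clone difference was larger by 0.72 without Dox, and Spred1, an inhibitor of the same pathway, was higher by 1.30. The 2 lower members were Etv4 and Egr1, an immediate early gene (−1.49). With Dox 5 were higher and 3 lower, and 1 was higher and 4 lower against Chek1_R and Ppm1g_R.

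Targets of the stress-induced factor ATF4 were lower in 12 of 28 tested genes (42.9%) and higher in 4 (median −0.51). Ddit3, a pro-apoptotic transcription factor, was at 8.25, 8.46 and 8.31 against 10.58, 10.85 and 10.67, 5.13-fold lower (SE 0.13). Chac1, which degrades glutathione, was at 7.71, 7.75 and 7.84 against 9.74, 9.74 and 9.77, and Trib3, a pseudokinase, at 8.19, 8.02 and 8.24 against 10.08, 9.97 and 9.98. Neither gene overlapped between the clones, but both were picked as called members with the largest differences. With Dox 12 of 28 were lower and none was higher, and the clone difference was larger in the positive direction without Dox for 4. Within the higher-signal set 5 were higher and 7 lower. Ddit3 was 1 of those 5 (0.77, adjusted p = 3.72e-06), while Chac1 was lower there too (−0.93, adjusted p = 1.29e-12). Ddit3 averaged 10.70 in Ctrl_R and 7.49 to 8.92 in the other 4 clones.

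An ATF4 element was searched as TGATGNAA on both strands in the same RefSeq windows. Of 22 genes of the list with a window, 8 held it, beside 4.51% of 27025 genes. Of the 8, 4 were lower, 1 was higher and 3 were not called, and of the 14 without a match 6 were lower and 3 higher. The 4 windows printed show a match in genes that were lower (Nupr1 and Chac1), higher (Atf3, 0.72) and not called (Asns, 0.36), along the gene's strand with the match in capitals. They lie at chr7:126625558-126625595 (Nupr1, minus strand), chr2:119351034-119351071 (Chac1, plus strand), chr1:191183421-191183458 (Atf3, minus strand) and chr6:7693210-7693247 (Asns, minus strand) of GRCm38.p6.
Nupr1: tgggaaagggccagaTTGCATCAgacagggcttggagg
Chac1: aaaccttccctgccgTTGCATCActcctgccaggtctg
Atf3: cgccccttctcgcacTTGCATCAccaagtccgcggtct
Asns: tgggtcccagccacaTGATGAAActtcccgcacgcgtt

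The ER unfolded protein response gave 2 higher and 2 lower of 14. Hspa5, the chaperone BiP, was higher by 1.27 and Calr, calreticulin, lower (−0.87). The level of Hspa5 followed the array sets, whose part was not tested. Its −Dox means were 7.85 in Ppp2r1b_R, 7.29 in Chek1_R and 8.02 in Ppm1g_R, and 6.27 in Bub1b_R and 6.57 in Ctrl_R. The list median of 0.08 turned to −0.13 under median scaling. Of 30 tested p53 targets 2 (6.67%) were higher and 5 (16.7%) lower (median −0.18). The lower share was near the 16% over all genes, and the higher share was under the 17.1% over all genes. The higher ones, singled out after their values had been seen, were Plk2 (0.92) and Perp (0.63). Gdf15, a stress-induced cytokine, was lower (−2.06), and so were Plk3 (−1.48), the BH3-only gene Pmaip1 (−1.01, with a second probe at 0.08) and Sesn2 (−0.96). Cdkn1a and Mdm2, classical p53 targets named after their values were seen, differed by −0.15 and −0.21 and were not called, although Mdm2 passed under median scaling (−0.67). Without Dox Gdf15 averaged 8.45 in Ctrl_R, 6.38 in Ppp2r1b_R, 5.71 in Chek1_R, 6.17 in Ppm1g_R and 6.23 in Bub1b_R. With Dox 3 of the 30 targets were higher and 6 lower, and none passed the test of the difference between clone differences. Against Chek1_R and Ppm1g_R 3 of the 30 were higher and 3 lower, with a median of 0.17.

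Germline genes were the group with the largest share of lower members. Of 35 on the array 19 passed the detection filter. Dim members could pass it through Ctrl_R alone, where the lowest detected signals were lower, so the share may lean towards lower calls. Of 19 tested, 14 (73.7%) were lower, none was higher, and the median was −1.08 (−1.04 with genes detected in 1 clone only at their bound and those detected in neither left out). Xlr4a, of an X-linked cluster of close copies, was lower (−2.07). Fkbp6, a cochaperone of the piRNA pathway, and Taf7l, a testis form of a general transcription factor subunit, were detected without Dox in Ctrl_R and on no Ppp2r1b_R array and were at least 2.22-fold and 2.90-fold lower. Mov10l1, a piRNA helicase, was lower (−1.75). With Dox 12 of 19 were lower and none higher. Within the higher-signal set 3 were lower and 1 higher, with a median of −0.15. Fkbp6 averaged 4.66 in Ppp2r1b_R, 4.84 to 5.20 in Chek1_R, Ppm1g_R and Bub1b_R and 6.76 in Ctrl_R.

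Genes of DNA replication and repair were lower more often than higher. Of 31 replication genes 9 were lower and 3 higher (median −0.33). Mcm3, of the replicative helicase, was lower (−1.13), and Pcna, the sliding clamp, was higher by 1.33. Without Dox Pcna averaged 9.38 in Ppp2r1b_R, 9.22 in Chek1_R and 9.65 in Ppm1g_R, and 7.86 in Bub1b_R and 8.05 in Ctrl_R. Its level thus followed the array sets, whose part was not tested, and it differed by −0.06 within the higher-signal set. Of 29 genes of the DNA damage checkpoint and repair 13 (44.8%) were lower and 1 higher (median −0.53). Hus1, of the checkpoint clamp, was lower (−0.72), and Fancc, of the Fanconi anaemia complex, was detected without Dox in Ctrl_R and on no Ppp2r1b_R array, at least 2.05-fold lower. With Dox 3 replication genes were higher and 3 lower, and 1 repair gene was higher and 7 lower. In each of these lists none was higher and 4 were lower against Chek1_R and Ppm1g_R. Of 21 genes of mitosis and the spindle checkpoint 2 (9.52%) were lower and 1 (4.76%) higher, both shares under those over all genes. Aurkc, the Aurora kinase of meiosis, was at 5.81, 5.29 and 6.03 against 8.14, 7.85 and 7.81 and was detected on 2 of 3 Ppp2r1b_R −Dox arrays. With Dox it was at 7.54, 7.38 and 7.02 in Ppp2r1b_R and at 8.23, 8.07 and 8.20 in Ctrl_R, so the clone difference was larger without Dox (−1.37 ± 0.22). Of 45 tested histone genes 12 were lower and 3 higher.

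**Figure D4:**
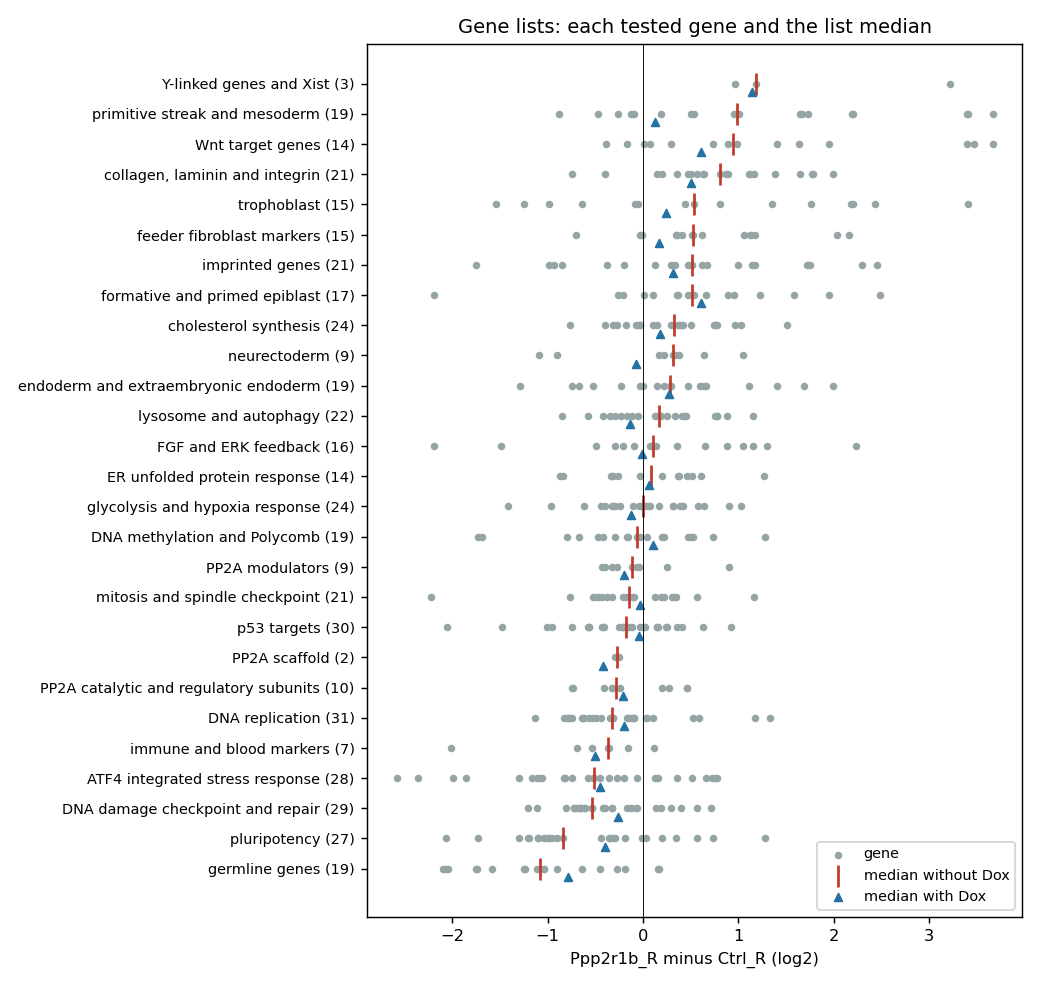
Log2 difference between Ppp2r1b_R and Ctrl_R (horizontal axis) for each tested gene of 27 lists without Dox, with the list median without Dox as a red bar and the median with Dox as a blue triangle; the number of tested genes follows each name. Medians without Dox run from −1.08 (germline genes) to 1.19 (3 Y-linked genes), and the largest list shift with Dox is that of primitive streak and mesoderm, from 0.99 to 0.13.

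The matrix and adhesion list was higher in 13 of 21 tested genes (61.9%) and lower in 1, with a median of 0.81. Lamb1-1 led it, followed by Col5a1, at 12.20, 12.11 and 12.15 against 10.39, 10.41 and 10.33. Without Dox Lamb1-1 averaged 8.27 in Ppp2r1b_R, 7.09 in Chek1_R and 7.96 in Ppm1g_R, and 5.88 in Bub1b_R and 6.27 in Ctrl_R. It was thus lower in both clones of the lower-signal set, and the part of the array set was not tested. Itgb5, an integrin chain, was higher by 1.77 and Col6a1 by 1.65. Within the higher-signal set 8 of the 21 were higher and none lower. Markers of the feeder fibroblasts had more higher than lower members too, and 2 of them, Col1a1 and Col3a1, are in both lists, whereas against Chek1_R and Ppm1g_R 3 feeder markers were higher and 3 lower. Of 15 tested feeder markers 7 were higher and 1 lower (median 0.52), and 9 more did not pass the detection filter, among them Col1a2, Lum and Postn. Twist2 was detected on all Ppp2r1b_R −Dox and no Ctrl_R −Dox arrays, at least 3.50-fold higher, Dcn likewise at least 1.65-fold, and Cav1 and Pdgfrb were higher by 2.04 and 1.13. The summed level of the 15 markers on the linear scale was 9218, 9577 and 9049 in Ppp2r1b_R −Dox and 7035, 7103 and 7104 in Ctrl_R −Dox. The most abundant, Acta2, was at 3423 to 3584 and 3476 to 3645 and overlapped. With Dox the sums were 9231 to 9612 and 7409 to 7781. Their part in the matrix result was not tested. Immune and blood markers were lower or not called, with 2 of 7 tested genes lower, led by Pecam1 (−2.02), which ESCs express too, and with Ptprc, Emr1, Lyz2 and Tal1 under the detection filter.

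**Figure D5:**
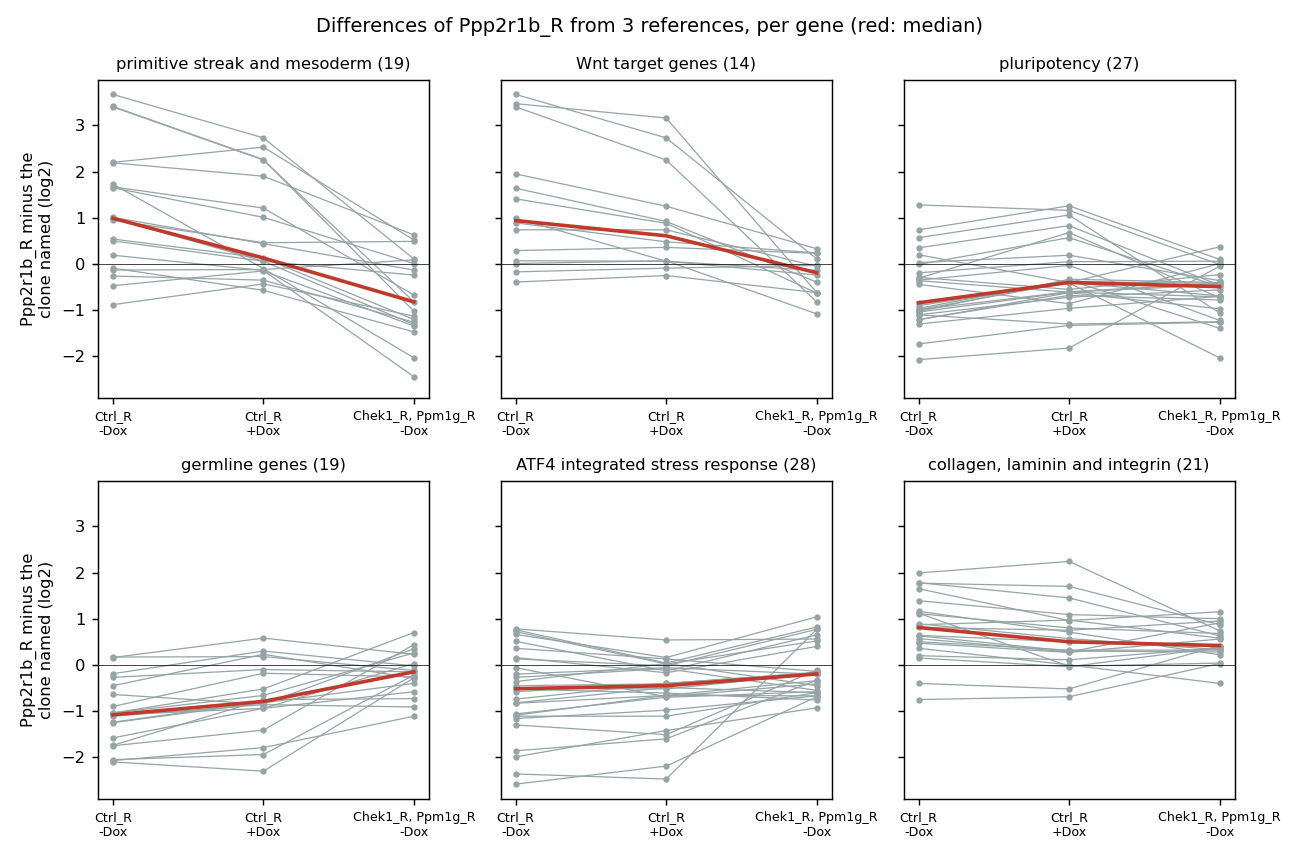
Log2 difference (vertical axis) of Ppp2r1b_R from Ctrl_R −Dox, from Ctrl_R +Dox (with Ppp2r1b_R +Dox) and from the mean of Chek1_R and Ppm1g_R −Dox for each tested gene of 6 lists, with list medians in red. The medians of the primitive streak list run from 0.99 through 0.13 to −0.82, those of matrix genes stay above 0 (0.81, 0.50 and 0.42), and those of germline genes run from −1.08 to −0.15.

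Metabolic lists held genes of both directions. Cholesterol synthesis had 7 of 24 genes higher and 1 lower (median 0.33, but 0.00 under median scaling). Idi1, an isomerase of isoprenoid synthesis, was higher by 1.51. Its −Dox means followed the array sets, at 7.84 in Ppp2r1b_R, 7.10 in Chek1_R, 7.74 in Ppm1g_R, 6.06 in Bub1b_R and 6.33 in Ctrl_R. Glycolysis and the hypoxia response had 4 higher and 3 lower of 24 (median 0.00, and −0.52 under median scaling), with Egln3, an oxygen-sensing hydroxylase, higher by 1.03 and the phosphofructokinase Pfkp lower (−1.42). The lysosome and autophagy list had 5 higher and 1 lower of 22, and its median of 0.17 turned to −0.05 under median scaling. Npc2, a lysosomal cholesterol carrier, was higher by 1.15, and Atp6v1h, a proton pump subunit, was lower (−0.85). Npc2 followed the array sets too, with −Dox means of 11.31 in Ppp2r1b_R, 10.78 in Chek1_R, 10.77 in Ppm1g_R, 10.05 in Bub1b_R and 10.16 in Ctrl_R. Compared with Chek1_R and Ppm1g_R, 5 genes of cholesterol synthesis, 6 of glycolysis and 9 of the lysosome list were higher, and none of these lists had a lower gene. Mitochondrial ribosomal proteins had 10 lower (14.7%) and 3 higher (4.41%) of 68 (median −0.31), both shares under those over all genes (16% and 17.1%). With Dox 4 of them were lower and 6 higher (median −0.13). The respiratory chain had 5 lower and 6 higher of 72, with the muscle and testis forms Cox6a2 and Cox8c detected without Dox in Ctrl_R and on no Ppp2r1b_R array and at least 1.78-fold and 2.71-fold lower. Among 66 genes with symbols of cytosolic ribosomal proteins 4 were higher and 6 lower (median −0.08, and −0.75 under median scaling), and the members with the largest differences included Rpl3l, Rps19bp1 and Rps6kl1, the last 2 of which are not ribosomal subunits. DNA methylation and Polycomb genes had 2 higher and 4 lower of 19. Rnf2, the ubiquitin ligase of Polycomb complex 1, was higher by 1.28 and Ezh1, a histone methyltransferase, lower (−1.69). Rnf2 averaged 7.53 in Ppp2r1b_R, 6.76 in Chek1_R, 7.45 in Ppm1g_R, 5.55 in Bub1b_R and 6.25 in Ctrl_R without Dox. The part of the array set in these genes was not tested. Of 78 tested olfactory receptor genes 7 were higher and 2 lower.

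Imprinted genes were higher in 10 of 21 tested (47.6%) and lower in 4. Mest, a paternally expressed hydrolase, was at 10.83, 10.78 and 10.90 against 8.53, 8.15 and 8.45, 5.50-fold higher (SE 0.13). It was also higher against Chek1_R and Ppm1g_R, by 2.15 (adjusted p = 1.1e-13), although these clones differed from each other (10.06 and 7.31). Peg10, a placental gene derived from a retrotransposon, was higher by 2.30 and the growth factor gene Igf2 by 1.75 ± 0.08. Nnat, neuronatin, was detected without Dox in Ctrl_R and on no Ppp2r1b_R array, at least 2.04-fold lower. Igf2 averaged 14.91 in Ppp2r1b_R, 14.33 to 15.09 in Chek1_R, Ppm1g_R and Bub1b_R, and 13.16 in Ctrl_R.

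By position, the median difference of the autosomes lay between −0.11 (chromosomes 7 and 11) and 0.09 (chromosome 1), the last of which turned to −0.05 under median scaling, as did the small positive medians of chromosomes 3, 6, 13, 14 and 18 to between −0.14 and −0.08. The 357 tested genes of the X chromosome had a median of 0.20, with 92 higher and 40 lower, and the median was 0.15 with Dox. All 3 tested Y-linked genes were higher. Eif2s3y, a translation initiation factor subunit, was at 10.89, 10.62 and 11.05 against 7.64, 7.70 and 7.56, 9.31-fold higher (SE 0.14). Ddx3y, an RNA helicase, was higher by 1.19 ± 0.12 and Uty, a histone demethylase paralog, by 0.97 ± 0.17. The same difference was present with Dox (3.30, 1.14 and 0.98), and the clone differences did not differ by the test (adjusted p = 0.865, 0.89 and 0.983). Eif2s3y averaged 8.75 in Chek1_R, 9.24 in Ppm1g_R and 6.56 in Bub1b_R, so the 5 clones were spread over a wide range and Ctrl_R lay inside it.

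The genes whose clone difference depended on Dox rest on changes measured within 1 clone and 1 array set each. Cxx1c, an X-linked gene derived from a retrotransposon (Rtl8c in RefSeq), was at 7.33, 7.53 and 7.37 in Ppp2r1b_R −Dox, 4.98, 4.99 and 4.98 in Ppp2r1b_R +Dox, 5.20, 5.17 and 4.99 in Ctrl_R −Dox and 5.18, 4.85 and 5.08 in Ctrl_R +Dox. Among these 12 arrays it was detected on the 3 of Ppp2r1b_R −Dox alone, at least 4.01-fold higher than in Ctrl_R −Dox, so the change of the clone difference (2.34 ± 0.15, adjusted p = 1.68e-09) is taken against values not above background. Without Dox it was high in other clones too, with means of 7.97 in Chek1_R, 6.93 in Ppm1g_R and 8.08 in Bub1b_R. After Rspo3 came Usp18, which changed by 1.94 ± 0.18 and was higher with Dox as well (7.05, 6.63 and 7.05) but by less, against Ctrl_R arrays that did not detect it. The gene of the apelin receptor, listed as Agtrl1, and Defcr-rs10, a cryptdin-related gene with close copies, were likewise detected among these 12 arrays in Ppp2r1b_R −Dox alone. They were at least 2.69-fold and 3.27-fold higher than in Ctrl_R −Dox. Other clones had high −Dox means too. Agtrl1 averaged 7.97 in Chek1_R, 6.84 in Ppm1g_R and 7.79 in Bub1b_R. Defcr-rs10 averaged 8.11 in Chek1_R, 6.54 in Ppm1g_R and 6.48 in Bub1b_R. Gjb2, a gap junction protein detected on all 12 arrays, changed by 1.48. In the negative direction, besides Aurkc, were the gene listed as D14Ertd668e (Phf11d in RefSeq, −1.23) and Ppp1r12c, a regulatory subunit of myosin phosphatase (−1.22 ± 0.27), whose call in the main comparison was lost without Ppp2r1b_R replicate 1 (−0.44) and whose second probe was not called (−0.30). Myo1f, an unconventional myosin, and Dazl, an RNA-binding protein of germ cells, were detected on no Ppp2r1b_R −Dox array, at least 3.95-fold and 3.05-fold lower than in Ctrl_R −Dox. Gstp2 changed by −1.09 and Lypd2 by −0.96. Tdrd12, a piRNA factor, was at 9.69, 9.66 and 9.43 in Ppp2r1b_R −Dox, 10.20, 10.33 and 9.94 with Dox, 10.39, 10.56 and 10.50 in Ctrl_R −Dox and 10.01, 9.95 and 10.14 with Dox, so that the clones moved in opposite directions on Dox withdrawal (−1.01 ± 0.12, adjusted p = 5.24e-06).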

How the data were processed

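On Illumina mouse WG-8 arrays 25697 probes were read, and for each array the deposited tables hold a background-subtracted intensity, which had not been brought to a common scale, and the p-value of detection. The submitters' processing notes name lumi, with no version given. Intensities were normalized in R 4.3.3 with limma 3.58.1 (normal-exponential correction fitted from detection p-values, offset 16, quantiles over 30 arrays, log2). Detection (p under 0.05) was required on 3 or more arrays, and the 15151 probes left entered 1 limma fit of 10 condition means (20 residual and 3.38 prior degrees of freedom), which was tested on simulated data. P-values were adjusted by Benjamini-Hochberg over all 15151 probes, and a call needed an adjusted p under 0.05 and 1.5-fold. A gene's brightest probe stands for it. Of 18097 symbols, 14094 matched RefSeq by symbol and 3047 by synonym, and 956 did not match. The number of arrays limits the precision.

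Lists and rules were chosen with earlier results of these data known. Named genes are PP2A subunits, the 10 largest differences in each direction detected on all 6 arrays without overlap, the 5 largest bounds in each direction, the 8 largest in each direction called also in the difference between clone differences, and up to 4 called genes of each of 33 lists (the 2 largest where none was called). LOC, Rik and GenBank names were skipped in the rankings, 3 and 2, 2 and 1, and 2 and 6 in turn. Alternatives were other background, scaling, offsets, filters, fold limits, arrays, a replicate block, the methods' t-test per probe and leaving out each array. Some genes that the rule names are not reported here.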

Additional observations from a re-analysis of the deposited data

Results flagged for a closer look

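The clone difference without Dox differed from that with Dox, by the test of the difference itself, for these named genes, with the former minus the latter on the log2 scale. Members of the streak list were Evx1 (1.83), T (1.15), Cdx2 (1.15) and Fgf8 (0.94), those of the epiblast list Fst (1.42) and Fgf5 (0.62), and from the Wnt, neurectoderm and Hox lists came Tnfrsf19 (0.70), Msx1 (1.26) and Hoxd8 (1.25). Other positive values were those of Rspo3 (2.03), Usp18 (1.94), D12Ertd647e (1.43), Samd9l (1.38), Gbp6 (0.94), Cxx1c (2.34), Defcr-rs10 (1.65), Agtrl1 (1.57), Defcr-rs7 (1.55), Gjb2 (1.48), Pdgfrb (0.96), Tmem176b (0.91), Dusp4 (0.72), Col6a1 (0.69) and Mest (0.66). Negative values were those of Aurkc (−1.37), D14Ertd668e (−1.23), Ppp1r12c (−1.22), Myo1f (−1.15), Gstp2 (−1.09), Tdrd12 (−1.01), Dazl (−0.99), Lypd2 (−0.96), Gm397 (−0.89), Aard (−0.89), Igsf21 (−0.76), Inpp5d (−0.76), Cplx1 (−0.70), Ela2a (−0.70), Tuba3a (−0.66) and Crabp1 (−0.64). Some of these values were taken against arrays that did not detect the gene. Among the arrays of these 2 clones, Cxx1c, Agtrl1 and Defcr-rs10 were detected in Ppp2r1b_R −Dox alone. Usp18, Samd9l, Gbp6 and Fgf5 were detected on no Ctrl_R array, and Rspo3 on 1 of 3 in either medium. Fst and Defcr-rs7 were detected on no Ctrl_R +Dox array, and Cdx2 and Hoxd8 on 1. Evx1, Msx1 and Fst were detected on 1 Ppp2r1b_R +Dox array, and Dazl, Myo1f and Cplx1 on no Ppp2r1b_R −Dox array. Values so taken are no bounds.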

How the results depend on the processing

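The 5106 called probes of the main comparison, the 4282 with Dox, the 497 of the difference between clone differences and the 2258 within the higher-signal set depended most on offset and fold limit. At an offset of 200 they numbered 1836, 1244, 52 and 623, at 2-fold 2006, 1485, 75 and 484, and with no fold limit 9910, 9292, 1254 and 7889. An offset of 50 gave 274 for the difference and 1499 within the set, median scaling 288 for the difference, and a fit of only the arrays compared 237. Other settings stayed within 1.5 times. Leaving out each array in turn gave 4933 to 5261, 4156 to 4514, 438 to 531 and 2242 to 2406. Replicate numbers did not pair the arrays (r = −0.03, 0.12 and 0.07 between same-numbered −Dox arrays), and with the replicate block the counts were 5105, 4281, 482 and 2257. The Nanog difference of −0.01 ranged from −0.08 to 0.08 when single arrays were left out and changed sign without 3 of the 6, and Ppp2ca changed sign under median scaling (−0.29). Calls of named genes were lost for 7 under median scaling (where 5 genes gained one), 7 under the methods' t-test, 8 at an offset of 50, 43 at 200 (Dcn, Cox6a2, Cox8c, Dazl and Agtrl1 among them), 1 without background correction and 1 with only the arrays compared. Without single arrays Sox4, Dnajb9, Olfr497 and Ppp1r12c lost theirs and Ppp2r2c gained one (0.66 without Ppp2r1b_R −Dox replicate 3). The causes were not tested. Dim genes are limited by the lowest detected signal, which was higher in Ppp2r1b_R.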
